A study of Mus musculus with 12 samples.

Results

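The 10 genes described here, Cat, Gclc, Gclm, Sod1, Sod2, Gpx1, Hmox1, Nqo1, Txnrd1 and Txnip, belong to the antioxidant and glutathione systems of the cell. They were taken as a named list, and every probe set whose annotation names one of them alone was used: 23 of the 45101 probe sets on the array, and 10 of its 18194 named genes. Of these probe sets, 22 were above the filter (a log2 value over 5 on at least 3 arrays) and were tested together with all 35426 probe sets above it. Total RNA of C57BL6 mice was measured on 12 Affymetrix arrays, 1 per sample, in 4 groups of 3: wild type (WT) and Sgpp2-/- (KO) on a normal diet, and WT and KO on a high-fat diet. The protein missing in KO mice, sphingosine-1-phosphate phosphatase 2, works in the endoplasmic reticulum. The title of the series names pancreatic islet β-cells, while the sample labels name no tissue. The age of the mice, the time on the diet, the design of the knockout allele and the number of animals behind an array were not stated in the sources used here, so the p-values cover only sample-to-sample spread, possibly of technical origin.

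Superoxide is converted to hydrogen peroxide by superoxide dismutases, and hydrogen peroxide is removed by catalase, by glutathione peroxidases and by peroxiredoxins. Glutathione is made by glutamate-cysteine ligase and glutathione synthetase, and oxidised thioredoxin is reduced by thioredoxin reductases. Many of these genes are induced by the transcription factor NRF2 (gene Nfe2l2), which binds the antioxidant response element and is held back by KEAP1 and BACH1. Rodent β-cells are known for low levels of catalase and glutathione peroxidase, and for strong induction of Txnip by glucose.

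Values are log2 RMA summaries, in which a difference of 1 is a 2-fold change, and a probe set's level cannot be set against that of another probe set. The number of arrays limited the precision, with a median standard error (SE) of 0.129 for a log2 difference between groups of 3. Sgpp2, the targeted gene, read 11.46 to 11.63 on the 6 WT arrays and 11.00 to 11.17 on the 6 KO arrays, where the place of its probe set relative to the deleted part was not stated. On the first principal component, with 26.8% of the variance, 5 WT arrays scored between −34.2 and −9.9 and the 6 KO arrays between 5.0 and 32.5. WT high-fat array 2 scored 2.7, beside the KO arrays, and results are given with and without it where that changes a call. Islet hormone genes were bright, with means over 12 arrays of 14.57 for Ins2 and 14.40 for Gcg, and so were acinar genes, with 14.63 for Ctrb1.

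Averaged over both diets, KO arrays had more Cat RNA than WT arrays, by 1.39-fold, and lower values of 1 or more probe sets of Txnrd1, Gclc, Gclm and Sod1, by 1.27-fold to 1.56-fold. A probe set is called here when its limma p, adjusted by Benjamini-Hochberg over all 35426, is under 0.05. By that rule 6 of the 22 member probe sets were called, against 8.39% of all probe sets tested. Of the 6, 1 rose, where 3.8% of all did, and 5 fell, where 4.59% of all did. The same 6 had values that did not overlap between genotypes within either diet, as had 8.15% of all. At an unadjusted p under 0.05 there were 9 member probe sets, against 28.1% of all. The median over the 22 was −0.08, and over all probe sets −0.039. A like genotype difference was therefore common on these arrays, and each of the 6 calls held under all 20 alternative settings at the level of probe sets, with adjusted p between 0.00238 and 0.0431. The split of all 2972 calls depended on the scaling between arrays: 45.3% were rises as reported, 64.5% of 2483 after cyclic loess and 72.2% of 2768 after centring each array on its median.

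**Figure D1:**
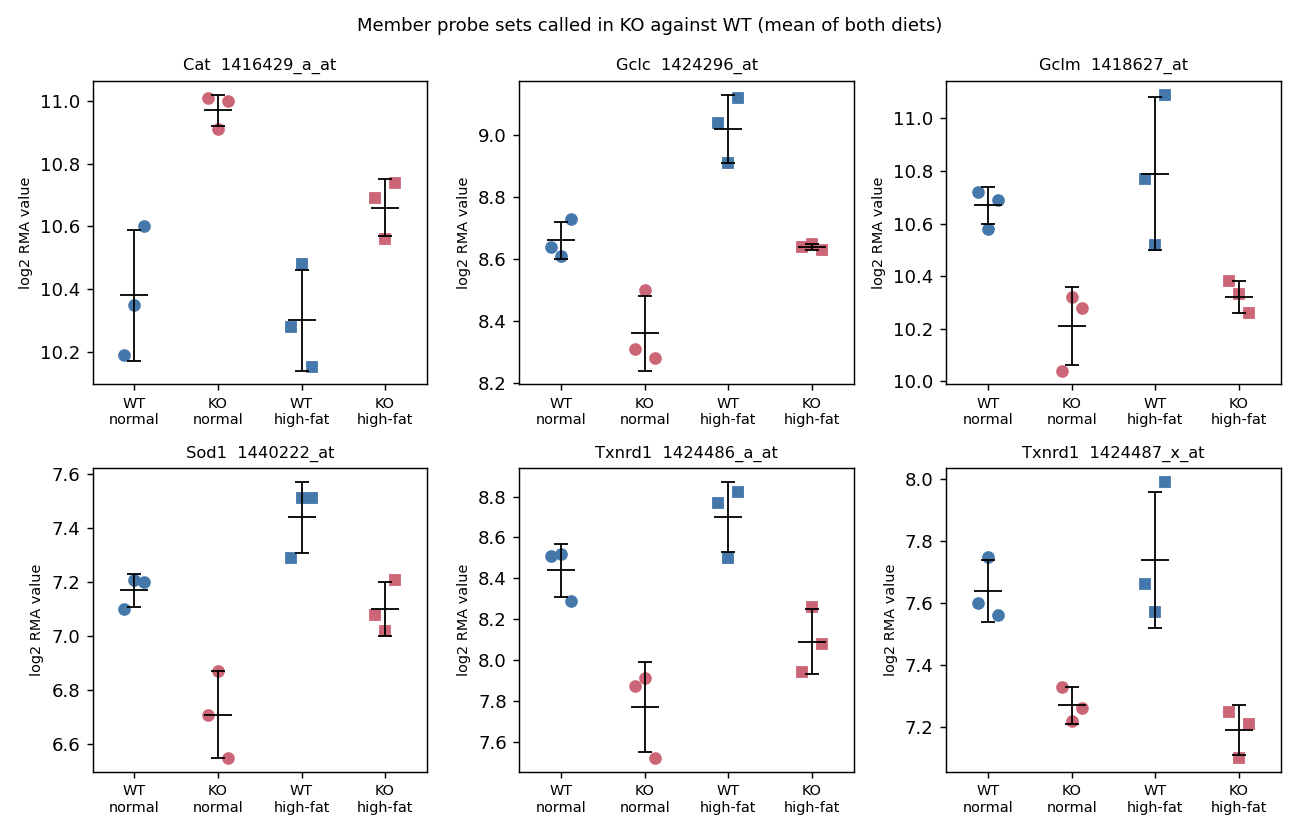
Log2 RMA values (y axis) of the 6 member probe sets called between KO and WT averaged over diets, in 4 groups of 3 arrays (x axis; circles, normal diet; squares, high-fat diet; black, mean and SD). All KO values of Cat exceed all WT values of the same diet, and the other 5 probe sets are lower.

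Within each diet, fewer calls were made. On the normal diet 2 of the 22 were called, against 1.34% of all probe sets tested: 1 probe set of Cat rose, where 0.714% of all did, and 1 of Txnrd1 fell, where 0.629% of all did. At an unadjusted p under 0.05 there were 8, against 21.0% of all, and 10 did not overlap between KO and WT, against 31.3% of all. On the high-fat diet limma called 0 of the 22, against 0.271% of all, and without WT high-fat array 2 it called 4, where 2.57% of all were called. Those 4 were the probe sets 1424486_a_at and 1424487_x_at of Txnrd1, 1424296_at of Gclc and 1418627_at of Gclm. Among all probe sets, 0.102% rose and 0.169% fell on that diet. At an unadjusted p under 0.05 there were 7 members on the high-fat diet, against 14.8% of all, and 9 did not overlap, against 16.8% of all. The differences of the 2 diets come from separate arrays and are plotted side by side.

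**Figure D2:**
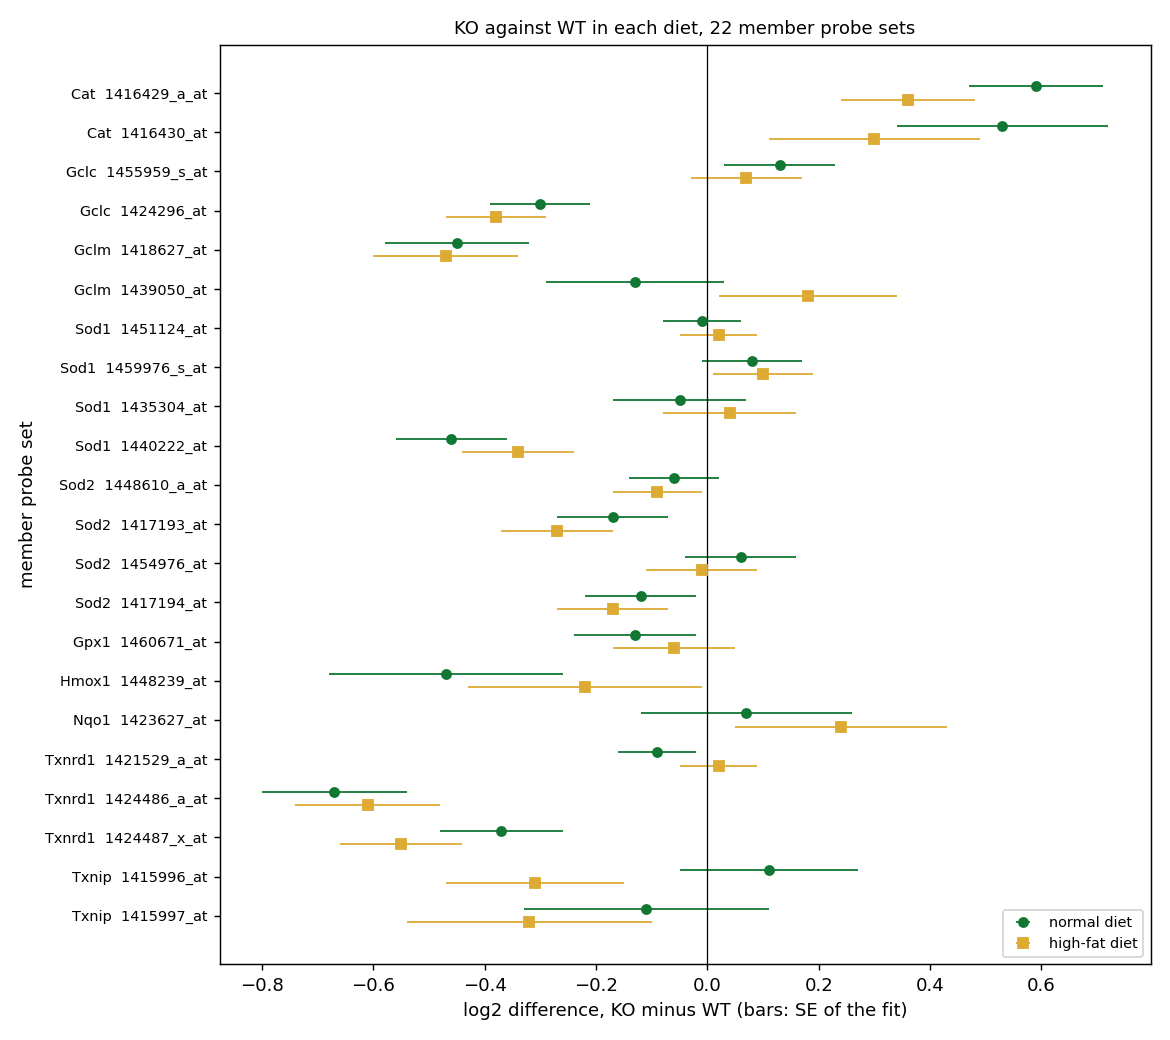
Log2 differences, KO minus WT, of the 22 member probe sets (y axis) on the normal diet (circles) and on the high-fat diet (squares), with the SE of the fit as bars. Both probe sets of Cat lie to the right of 0 on each diet, and for Txnrd1, Gclc, Gclm and Sod1 some probe sets lie well to the left while others of the same gene lie near 0.

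Cat encodes catalase, the peroxisomal enzyme that splits hydrogen peroxide into water and oxygen, at chr2:103453904-103485153 (positions of genes are of build GRCm38.p6). Its probe set 1416429_a_at read 10.19, 10.35 and 10.60 on the WT arrays of the normal diet and 11.01, 10.91 and 11.00 on the KO arrays. On the high-fat diet it read 10.28, 10.48 and 10.15 in WT and 10.69, 10.56 and 10.74 in KO. Every KO array was above every WT array of its diet. The rise was 0.59 on the normal diet (SE 0.12, 1.51-fold, limma adjusted p = 0.0419) and 0.48 averaged over diets (SE 0.08, adjusted p = 0.00818). With high-fat feeding it differed by 0.36 (SE 0.12, adjusted p = 0.188). With any 1 of the 6 arrays of the normal diet left out, the call on that diet ended, with adjusted p from 0.0664 to 0.161, and so it did without any of 3 high-fat arrays, with 0.0528 to 0.0557. It also ended with only the arrays compared (adjusted p = 0.073), with a fixed replicate block (0.0694) and with the mean of both Cat probe sets (0.0867). The call over both diets was not fitted with only the arrays compared, and it held in each of the other settings named here.

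The other probe set of Cat, 1416430_at, ranged from 6.23 to 6.98 on the WT arrays and from 6.71 to 7.44 on the KO arrays, so that the genotypes overlapped. Its difference over both diets was 0.42 (SE 0.14, unadjusted p = 0.0105, adjusted p = 0.0797), the same direction and close in size. Gpx1, the glutathione peroxidase of the cytosol and mitochondria, uses glutathione to reduce peroxides, and lies at chr9:108339080-108340342. It read 12.22 to 12.55 in WT and 12.22 to 12.46 in KO, and the groups overlapped on each diet. Its difference over both diets was −0.09 (SE 0.08, adjusted p = 0.458).

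Acinar cells were measured beside Cat through 11 named markers of 14, all above the filter. All 11 had higher means in KO on the normal diet, with a median of 0.24, and the log2 of their summed signal was 17.05 to 17.23 in WT and 17.24 to 17.44 in KO. On the high-fat diet 8 of 11 were higher, with a median of 0.05. The summed signal overlapped there, at 16.93 to 17.23 in WT and 17.14 to 17.20 in KO, while 1416429_a_at of Cat did not overlap. Averaged over both diets all 11 were higher in KO, with a median of 0.13. Between diets in KO, 0 of 11 were higher on the high-fat diet, with a median of −0.18, where 1416429_a_at differed by −0.31. The part of acinar RNA in the difference of Cat was not tested, and in bulk samples more cells of a type and more RNA per cell cannot be told apart. Of the liver markers Alb averaged 6.11, Apoa1 9.10 (8.22 to 11.36 over the arrays) and Ttr 14.56. Of the named fat markers Adipoq, below the filter, averaged 3.53 and Fabp4 11.53. The summed signals of both lists overlapped between genotypes on each diet. That of the liver list, at 14.49 to 14.73, was close to Ttr alone, at 14.46 to 14.68, so it says little of Alb and Apoa1. Of 5 red blood cell markers 2 were named: Hba-a1 was below the filter, with a mean of 4.14, and Alas2 averaged 5.39.

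Gclc and Gclm encode the catalytic and the modifier subunit of glutamate-cysteine ligase, the rate-limiting enzyme of glutathione synthesis, at chr9:77754535-77794489 and chr3:122245487-122267215. The probe set 1424296_at of Gclc read 8.64, 8.61 and 8.73 on the WT arrays of the normal diet and 8.31, 8.50 and 8.28 on the KO arrays. On the high-fat diet the values were 9.04, 8.91 and 9.12 in WT and 8.64, 8.65 and 8.63 in KO. KO was lower on each diet without overlap, and each genotype read higher on the high-fat diet than on the normal diet without overlap. Averaged over diets 1424296_at fell by 0.34 in KO (SE 0.06, 1.27-fold, adjusted p = 0.00998). The other probe set, 1455959_s_at, differed by 0.10 the other way (SE 0.07, adjusted p = 0.381). On the normal diet its KO arrays, at 9.21 to 9.28, lay above its WT arrays, at 9.06 to 9.19, and on the high-fat diet the genotypes overlapped.

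Gclm followed a similar course on its probe set 1418627_at. It read 10.72, 10.58 and 10.69 on the WT arrays and 10.04, 10.32 and 10.28 on the KO arrays of the normal diet, and 10.77, 10.52 and 11.09 against 10.38, 10.33 and 10.26 on the high-fat diet. No KO array reached the lowest WT array of its diet. Over both diets 1418627_at fell by 0.46 (SE 0.09, 1.38-fold, adjusted p = 0.0149). The differences within a diet were −0.45 (adjusted p = 0.101) and −0.47 (adjusted p = 0.133). The second probe set of Gclm, 1439050_at, ranged from 10.12 to 10.64 in WT and from 9.97 to 10.62 in KO, and differed by 0.03 over both diets.

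Txnrd1 encodes the cytosolic thioredoxin reductase, a selenoprotein that keeps thioredoxin in its reduced form, at chr10:82833951-82897724. Its probe set 1424486_a_at read 8.51, 8.52 and 8.29 in WT and 7.87, 7.91 and 7.52 in KO on the normal diet, and 8.77, 8.50 and 8.82 in WT and 7.94, 8.26 and 8.08 in KO on the high-fat diet. All 6 KO arrays were below all 6 WT arrays. The fall was 0.67 on the normal diet (SE 0.13, 1.59-fold, adjusted p = 0.042) and 0.64 over both diets (SE 0.10, 1.56-fold, adjusted p = 0.00453). With high-fat feeding it differed by −0.61 (SE 0.13, adjusted p = 0.0787), and without WT high-fat array 2 it was called (adjusted p = 0.036). Its normal-diet call ended without any 1 of the 6 arrays of that diet, with adjusted p from 0.0634 to 0.161, and without any of 3 high-fat arrays, with 0.0523 to 0.0528. It also ended with only the arrays compared (adjusted p = 0.0723), with a fixed replicate block (0.0668) and after cyclic loess (0.0564).

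The probe set 1424487_x_at of Txnrd1 ranged from 7.56 to 7.99 in WT and from 7.10 to 7.33 in KO, again without overlap. It fell by 0.46 over both diets (SE 0.08, 1.38-fold, adjusted p = 0.00716). The third, 1421529_a_at, read 12.77 to 12.80 in WT and 12.67 to 12.82 in KO. On the normal diet its KO arrays, at 12.67 to 12.73, lay below its WT arrays, at 12.78 to 12.79, and on the high-fat diet the genotypes overlapped. The difference of 1421529_a_at over both diets was −0.04 (SE 0.05, adjusted p = 0.665). The suffix x marks probes that may bind other transcripts, s probes shared by several genes, and a probes shared by transcripts of a gene, by the maker's naming.

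Sod1 and Sod2 encode the copper-zinc superoxide dismutase of the cytosol and the manganese superoxide dismutase of mitochondria, at chr16:90220762-90226333 and chr17:13007839-13018119. Of 5 probe sets of Sod1, 1440222_at fell in KO. It read 7.10, 7.21 and 7.20 in WT and 6.71, 6.87 and 6.55 in KO on the normal diet, and 7.29, 7.51 and 7.51 in WT and 7.08, 7.02 and 7.21 in KO on the high-fat diet. The genotypes did not overlap within a diet, and the KO arrays of the high-fat diet, at 7.02 to 7.21, overlapped the WT arrays of the normal diet. The fall over both diets was 0.40 (SE 0.07, 1.32-fold, adjusted p = 0.0102). The other 3 tested probe sets of Sod1 differed by 0.01, 0.09 and 0.00 over both diets. Among them 1451124_at read 14.23 to 14.34 on all 12 arrays. The probe set 1447761_x_at, at 3.19 to 3.55, was below the filter and was not tested.

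None of the 4 probe sets of Sod2 was called. The lowest p belonged to 1417193_at, which read 11.73 to 11.91 in WT and 11.52 to 11.71 in KO on the normal diet, without overlap, overlapped on the high-fat diet and differed by −0.22 over both diets (SE 0.07, unadjusted p = 0.0102, adjusted p = 0.079). Without WT high-fat array 2 its adjusted p was 0.0335. The others differed by −0.08, 0.02 and −0.15.

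Probe sets of 1 gene were compared directly, since a call on one and none on another does not show that they differ. For all 19 pairs of tested probe sets within a gene, the log2 difference between both was taken on each array and compared between KO and WT by an exact two-sided permutation test that exchanges genotypes within a diet, with 0.005 the smallest p its 400 arrangements can give and n = 6 per genotype. This test was added after the values had been seen. It takes all arrays of a genotype as separate units, so its p-values could be too small if same-numbered arrays of both diets shared a source. After Benjamini-Hochberg adjustment over the 19 pairs, 7 differed. For Txnrd1, 1424486_a_at moved by −0.60 relative to 1421529_a_at, and 1424487_x_at by −0.43 (permutation p = 0.005 and adjusted p = 0.019 for each). For Gclc, 1424296_at moved by −0.44 relative to 1455959_s_at (permutation p = 0.005, adjusted p = 0.019). The probe set 1440222_at of Sod1 moved by −0.41, −0.49 and −0.40 relative to the other 3 (permutation adjusted p = 0.019, 0.019 and 0.0407). In Sod2, 1417193_at moved by −0.15 relative to 1448610_a_at (permutation adjusted p = 0.0317). The pair of Gclm differed by 0.49 (permutation p = 0.04, adjusted p = 0.095), and the pair of Cat by −0.06 (permutation p = 0.66). A genotype difference of Txnrd1, Gclc or Sod1 therefore held for some of its probe sets and differed from that of others, and the transcripts that each probe set reads were not determined.

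Promoters of Gclm, Txnrd1 and Sod1, each with 1 or more probe sets that fell, are shown with that of Cat. They were chosen because the antioxidant response element is a known sequence of NRF2 targets. Of the 10 genes, 8 matched RefSeq promoter windows of build GRCm38.p6, with 10 windows, and Gclc and Hmox1 did not. The core TGACNNNGC was searched on both strands in the 250 bases before each start site, and was found in 3338 of 32851 windows (10.2%). It was present in 3 of the 10 member windows, in Gclm, Txnrd1 and Sod1, at positions −134, −92 and −56 counted from the start site to its first base. For Gclm that start site, chr3:122245557, lies beyond the end of the printed window, so −134 is not counted from the last base shown. The windows of Gclm (chr3:122245307-122245486, plus strand, ending before the first annotated base of the gene), Txnrd1 (chr10:82858956-82859205, plus strand, 1 of 3 annotated starts) and Sod1 (chr16:90220512-90220761, plus strand) have this core in capitals, which lies on the reverse strand in each. The window of Cat (chr2:103485154-103485403, minus strand) holds no such core. Its capitals mark 4 CCAAT boxes on either strand, a motif found in 33.8% of all windows, and in the printed windows no CCAAT overlaps the antioxidant core.
Gclm: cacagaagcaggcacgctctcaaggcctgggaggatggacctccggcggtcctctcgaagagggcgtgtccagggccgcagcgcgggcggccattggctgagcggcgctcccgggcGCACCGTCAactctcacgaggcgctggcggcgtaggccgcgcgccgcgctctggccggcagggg
Txnrd1: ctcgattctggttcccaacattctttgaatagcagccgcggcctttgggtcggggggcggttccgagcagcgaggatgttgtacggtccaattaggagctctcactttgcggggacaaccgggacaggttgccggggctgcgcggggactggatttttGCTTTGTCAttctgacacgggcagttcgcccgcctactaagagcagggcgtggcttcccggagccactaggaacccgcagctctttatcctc
Sod1: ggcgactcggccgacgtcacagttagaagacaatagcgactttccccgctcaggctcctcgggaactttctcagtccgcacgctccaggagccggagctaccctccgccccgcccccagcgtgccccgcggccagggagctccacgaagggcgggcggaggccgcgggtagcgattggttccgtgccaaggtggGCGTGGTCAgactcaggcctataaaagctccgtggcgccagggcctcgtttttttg
Cat: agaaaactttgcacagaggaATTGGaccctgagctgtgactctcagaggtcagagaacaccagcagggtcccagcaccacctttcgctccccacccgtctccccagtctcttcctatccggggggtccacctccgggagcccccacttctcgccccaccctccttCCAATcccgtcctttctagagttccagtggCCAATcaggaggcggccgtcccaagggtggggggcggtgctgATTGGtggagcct
A match of letters is a description of the window and shows no binding.

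Hmox1 (chr8:75093618-75100593) and Nqo1 (chr8:107388225-107403205), classical NRF2 targets, were not called in any comparison. Hmox1, the inducible haem oxygenase, read 7.91, 7.85 and 8.31 in WT and 7.84, 7.31 and 7.50 in KO on the normal diet, and 8.39, 8.24 and 8.08 in WT and 7.89, 7.67 and 8.47 in KO on the high-fat diet. KO was lower without overlap on the normal diet and overlapped WT on the high-fat diet. The difference over both diets was −0.35 (SE 0.15, unadjusted p = 0.0358, adjusted p = 0.149). Nqo1, which reduces quinones, read 9.54 to 10.41 in WT and 10.02 to 10.43 in KO, and differed by 0.16 (SE 0.13, adjusted p = 0.465).

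Txnip encodes the thioredoxin-interacting protein, which binds and inhibits thioredoxin, at chr3:96557957-96561857. Its probe set 1415996_at read 12.44, 12.47 and 11.75 in WT and 12.38, 12.27 and 12.35 in KO on the normal diet, and 12.19, 12.31 and 12.49 in WT and 12.04, 11.99 and 12.03 in KO on the high-fat diet. WT normal array 3 was the lowest of the 12, and the 3 KO arrays of the high-fat diet lay below the other 8. KO differed from WT by 0.11 with normal feeding (SE 0.16, adjusted p = 0.712) and by −0.31 with high-fat feeding (SE 0.16, adjusted p = 0.40). The probe set 1415997_at had differences of −0.11 and −0.32 and its KO arrays also lay below all WT arrays on the high-fat diet, at 8.20 to 8.36 against 8.45 to 8.90. The interaction, the KO difference on the high-fat diet minus that on the normal diet, was −0.42 for 1415996_at (SE 0.23, unadjusted p = 0.091, adjusted p = 0.989).

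**Figure D3:**
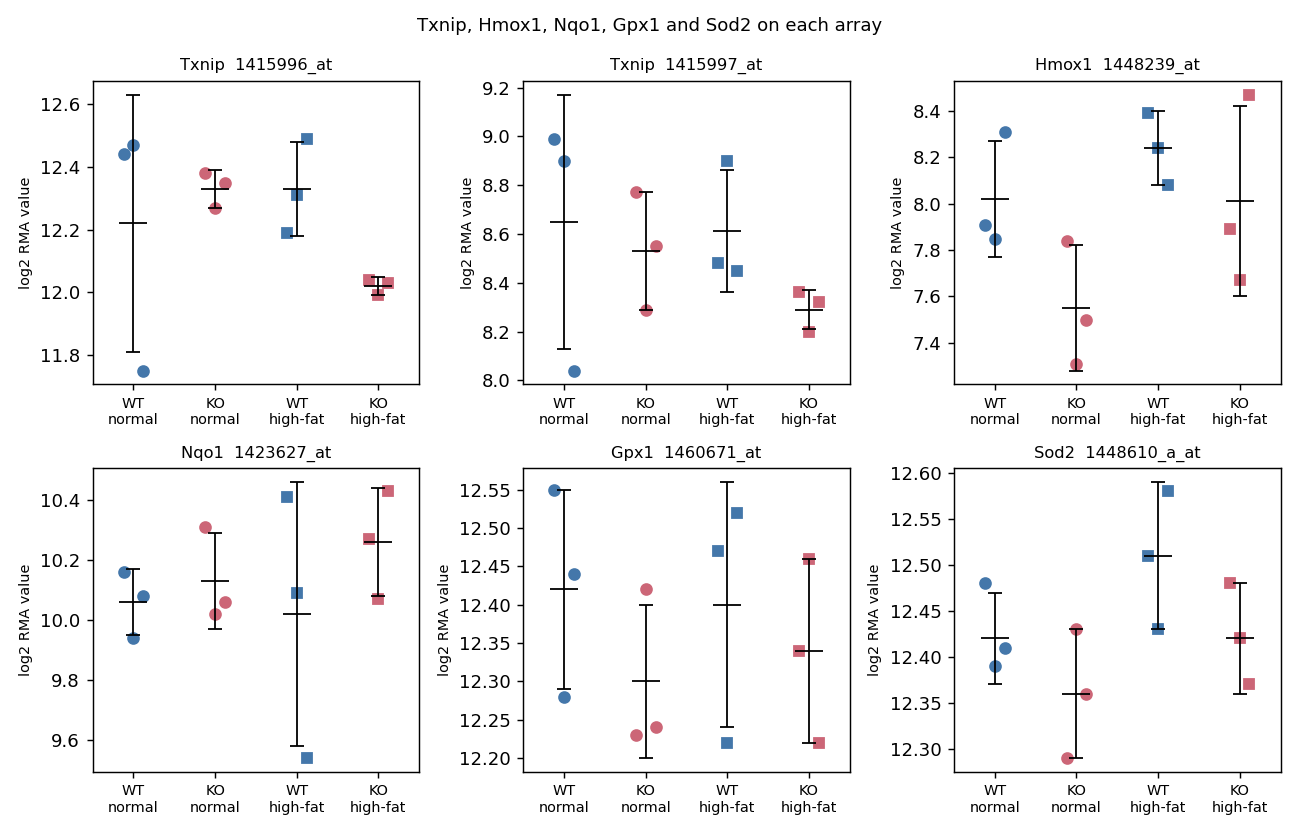
Log2 RMA values (y axis) of Txnip, Hmox1, Nqo1, Gpx1 and Sod2 probe sets that were not called, in 4 groups of 3 arrays (x axis; circles, normal diet; squares, high-fat diet; black, mean and SD). For both Txnip probe sets the KO arrays lie below the WT arrays on the high-fat diet and overlap them on the normal diet, and the genotypes overlap for Nqo1 and Gpx1 on each diet.

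The high-fat diet was compared with the normal diet in each genotype. None of the 22 member probe sets passed limma's test in WT, where 0.0508% of all were called, in KO, where 0.0% were, or averaged over genotypes, where 0.178% were. At an unadjusted p under 0.05 there were 3 in WT against 11.2% of all, 5 in KO against 8.4% of all, and 6 in the average against 13.9% of all. Values did not overlap between diets for 3 in WT, against 15.7% of all, and for 6 in KO, against 13.3% of all. In both genotypes at once this held for 2, against 2.24% of all: 1424296_at of Gclc and 1440222_at of Sod1, 2 of the probe sets that fell in KO.

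Gclc (1424296_at) was higher on the high-fat diet by 0.36 in WT (SE 0.09, adjusted p = 0.193), by 0.27 in KO (SE 0.09, adjusted p = 0.435) and by 0.32 on average (SE 0.06, adjusted p = 0.0717). Sod1 (1440222_at) differed by 0.27, 0.39 and 0.33, with adjusted p = 0.101 for the average. Both passed in the average when same-numbered arrays of a genotype were fitted as a random block (paired; adjusted p = 0.0261 and 0.0426), a setting that raised the calls over all probe sets from 63 to 478. In KO the probe set 1416429_a_at of Cat differed by −0.31 between the high-fat and the normal diet (SE 0.12, adjusted p = 0.503), and in WT it differed by −0.08. The Txnrd1 probe set 1424486_a_at differed by 0.26 in WT and 0.32 in KO (adjusted p = 0.527 and 0.555). The diet and genotype comparisons share arrays, so their values for a member are not separate evidence.

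**Figure D4:**
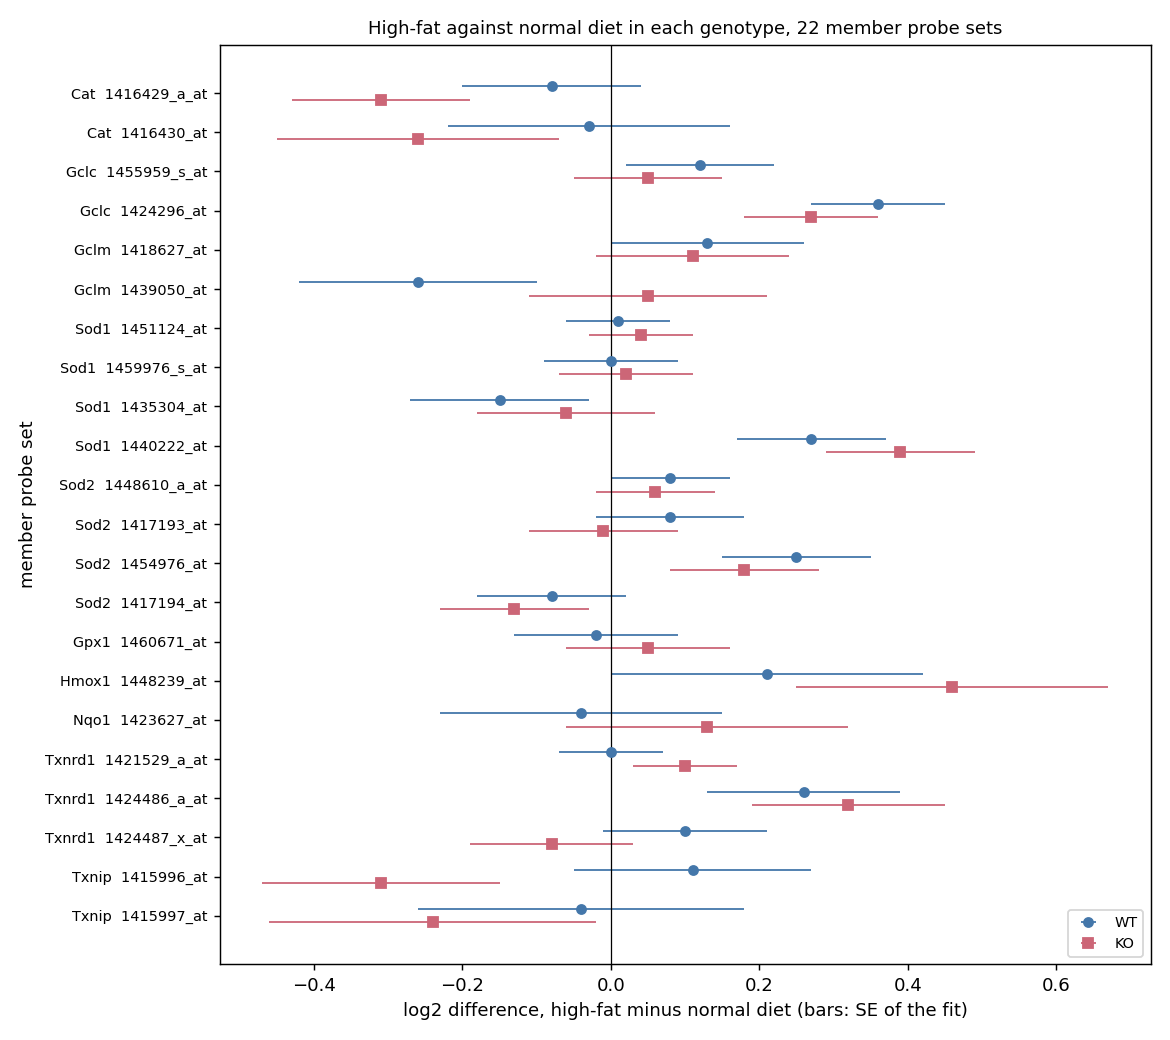
Log2 differences, high-fat minus normal diet, of the 22 member probe sets (y axis) in WT (circles) and KO (squares), with the SE of the fit as bars. The Gclc probe set 1424296_at and the Sod1 probe set 1440222_at lie to the right of 0 in both genotypes, and none of the 22 passed the test.

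The genotype difference was not shown to change with the diet for any member. The interaction was called for 0 of the 22 by limma, against 0.0% of all, and 0 had an unadjusted p under 0.05, against 4.99% of all. For Cat (1416429_a_at) it was −0.23 (SE 0.17, unadjusted p = 0.186, adjusted p = 1.0), so that a change of this size was not detectable with these arrays.

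A wider set of 94 genes of the same systems, in 7 lists that do not hold the 10 members, was read for comparison. Of these, 85 were named on the array, with 140 probe sets above the filter. Over both diets 14 of the 140 were called in KO against WT, 7 up and 7 down, or 10.0%, beside 8.39% of all probe sets tested. In KO against WT on the normal diet and on the high-fat diet limma called 0 of them, where 1.34% and 0.271% of all were called. At an unadjusted p under 0.05 there were 40 (28.6%) and 22 (15.7%), against 21.0% and 14.8% of all. The list medians over both diets lay between −0.13 and −0.06, where that of all probe sets was −0.039.

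Among genes of superoxide and peroxide removal, 1 of 12 probe sets passed. It was that of Prdx4, the peroxiredoxin of the endoplasmic reticulum, which read 12.26 to 12.58 in WT and 12.57 to 12.93 in KO. It rose by 0.36 over both diets (SE 0.06, 1.28-fold, adjusted p = 0.00681), without overlap within a diet, and the other probe sets of Prdx4 differed by 0.23 (adjusted p = 0.0716) and 0.15 (adjusted p = 0.182). In the thioredoxin list 1 of 20 passed, the probe set 1429971_at of Txnrd2, the mitochondrial thioredoxin reductase, which fell by 0.29 (SE 0.07, adjusted p = 0.029). Its other 3 probe sets differed by −0.22, −0.10 and 0.01 and did not pass. None of 20 probe sets of glutathione synthesis and reduction passed, and the lowest p was that of Glrx (glutaredoxin), at −0.26 (adjusted p = 0.063).

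Among glutathione transferases 2 of 24 passed. The probe set 1456036_x_at of Gsto1 rose by 0.50 (SE 0.08, 1.41-fold, adjusted p = 0.00573), while its other probe set, 1416531_at, differed by −0.11 (adjusted p = 0.254). Gstt1, with 1 probe set tested, fell by 0.28 (SE 0.08, adjusted p = 0.0438). Of 21 probe sets of NRF2 pathway regulators 2 passed, both downward. The probe set 1449311_at of Bach1, a repressor that competes with NRF2, read 7.12 to 7.55 in WT and 6.21 to 6.95 in KO and fell by 0.67 (SE 0.14, 1.59-fold, adjusted p = 0.0155). The other, 1440831_at, differed by 0.09 the other way (adjusted p = 0.365). Nfe2l1, which encodes the related factor NRF1, fell by 0.26 (SE 0.06, adjusted p = 0.0304). Of 21 probe sets of NADPH, haem and iron genes, 3 passed. The probe set 1419821_s_at of Idh1, an NADPH-forming isocitrate dehydrogenase, rose by 0.44 (adjusted p = 0.028). Its other, 1422433_s_at, differed by 0.15 (adjusted p = 0.146). The suffix s on both marks probes shared by several genes. Whether a gene of the wider lists lies near Sgpp2 on its chromosome was not tested. Of 4 probe sets of Pgd, an enzyme of the pentose phosphate pathway, 1437380_x_at rose by 0.23 (adjusted p = 0.0371), and the others differed by 0.23, 0.09 and, for 1423706_a_at, −0.26 (adjusted p = 0.0513, 0.283 and 0.191). Hmox2, the constitutive haem oxygenase, fell by 0.22 (adjusted p = 0.0468).

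**Figure D5:**
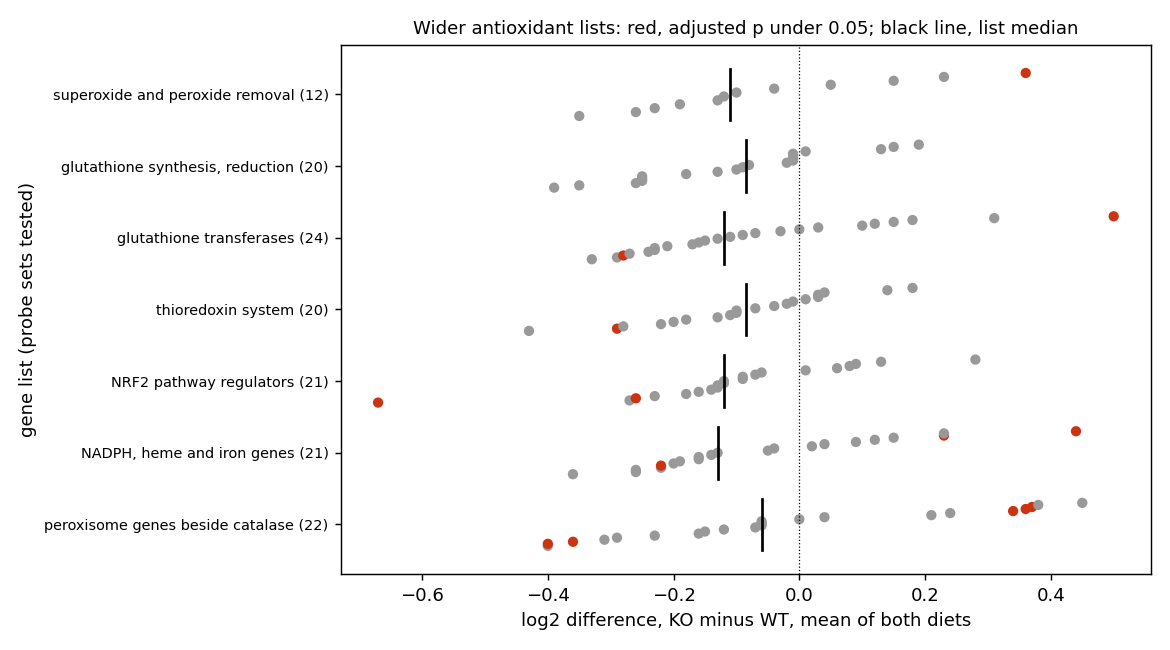
Log2 differences, KO minus WT averaged over diets (x axis), of 140 probe sets in 7 lists around the members (y axis, with the number of probe sets tested). Red points passed an adjusted p of 0.05 and black lines are list medians, which lie between −0.13 and −0.06.

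Endothelial markers moved with genotype beside Txnrd1, Gclc, Gclm and Sod1. All 6 had lower means in KO over both diets, with a median of −0.22 and 2 called, and the log2 of their summed signal was 13.36 to 13.45 in WT against 13.18 to 13.20 in KO on the normal diet, and 13.35 to 13.43 against 13.19 to 13.32 on the high-fat diet. Of 5 tested macrophage markers 1 was higher, with a median of −0.24, and their summed signal overlapped between genotypes on each diet. The 6 named β-cell markers had a median of −0.06 over both diets, with 1 higher in KO. On the normal diet 0 of them were higher, and their summed signal was 16.49 to 16.55 in WT against 16.40 to 16.46 in KO. On the high-fat diet it overlapped, at 16.44 to 16.52 and 16.33 to 16.50. The 2 named α-cell and 2 δ-cell markers were lower in KO over both diets, with medians of −0.17 and −0.19, and 0 were called. RNA integrity was read from control probe sets, as the log2 difference of the 3′ over the 5′ probe set. For β-actin it was 2.27 to 2.45 in WT and 2.17 to 2.49 in KO. For Gapdh it was 1.10 to 1.71 in WT and 1.08 to 1.23 in KO. The high Gapdh value lay in the WT high-fat group, at 1.15 to 1.71, while no other group exceeded 1.23. These ranges do not show which WT high-fat array read 1.71. The part of other cell types in the differences of the members was not tested.

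Genes with the most similar course over the 12 arrays were found by the root mean square difference of log2 values, each centred on its own mean, among 15238 other genes. Each other gene entered only by its probe set with the highest mean. The nearest to Cat (1416429_a_at) were Khsrp (0.099), Ankrd10 (0.10) and Chm (0.104), set against a standard deviation of 0.30 for Cat itself. For Gclc (1424296_at) they were Rgs7 (0.087), Rufy2 (0.094) and Slc39a9 (0.099), and for Gclm (1418627_at) Macroh2a1 (0.092), Pi4kb (0.093) and 2900052L18Rik (0.095). For Sod1 (1440222_at) they were Rhoj (0.089), Rilp (0.104) and 4732419C18Rik (0.109), and for Txnrd1 (1424486_a_at) Taf15 (0.162), Bin1 (0.164) and Ddx10 (0.165). Txnip (1415996_at) had B930059L03Rik (0.095), Cited2 (0.107) and 9030622O22Rik (0.125). No gene of the antioxidant lists was among these 18. Gclc, Sod1 and Txnrd1 could enter as neighbours only by probe sets that were not called, so the search could not show whether the called ones are alike.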

How the data were processed

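The authors deposited 1 table of log2 RMA values per probe set and array. Per the submitters' processing notes the tools were RMA and Partek 6.6, with options that were not stated. That the scale is log2 was read from the range of the deposited values, 2.60 to 15.04 without the 64 control probe sets, with array medians of 7.00 to 7.13. RMA equalises the arrays, so a shift of most genes 1 way would be hidden.

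Of all probe sets, 34945 name 1 gene in the platform annotation. Probe sets over 5 (log2) on 3 or more arrays were fitted with limma 3.58.1 in R 4.3.3, with 1 coefficient per group over all 12 arrays (8 residual degrees of freedom, 11.63 after moderation), two-sided, with Benjamini-Hochberg adjustment over all 35426 and a threshold of 0.05. Every adjusted p without another name is from this fit, which was tested on simulated data. The members, lists and markers were chosen with earlier results of these data known. All members are named, and of the wider lists the probe sets called and up to 4 more with the smallest p. Alternatives changed the probe set taken per gene, the filter, the scaling, the variance model, the arrays fitted, the replicate block, and left out each array in turn. Python 3.11.15 and matplotlib 3.10.9 made the tables and figures.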

Additional observations from a re-analysis of the deposited data

How the results depend on the processing

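The count of member probe sets called over both diets in KO against WT was 6 as reported and 6 or 7 under every alternative at the level of probe sets, with 6 to 7 when single arrays were left out. It was 2 of 10 genes with the probe set of the highest mean per gene (Cat and Gclm) and 2 when a gene's probe sets were averaged (Cat and Txnrd1), since these settings keep 1 value per gene. On the normal diet the count was 2, and it was 1 with the highest probe set per gene, 0 with the mean of probe sets, 1 after cyclic loess, 5 with array weights and 0 with only the arrays compared. Leaving out single arrays gave 0 to 2 on the normal diet and 0 to 4 on the high-fat diet, where the count was 0. With the replicate number as a fixed replicate block (paired) the count was 0 on the normal diet and 6 over both diets, and with a random replicate block within genotype it was 2, 6 and, for the diet averaged over genotypes, 2 in place of 0. The other counts were 0 under every alternative run, including a block in the KO arrays alone, which was added after the data had been seen. No called difference changed its direction.

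Same-numbered KO arrays of both diets deviated together, with r = 0.257, 0.26 and 0.061 over probe sets and 0.288, 0.383 and 0.138 over genes. Every KO array matched its own number best over genes and 2 of 3 did over probe sets, so the numbers pair the KO arrays by the genes' values and not by those of the probe sets tested here. This bears on the diet comparison in KO, where the block in the KO arrays alone gave 0 calls, members and others alike, as did the fit without it. It bears also on KO against WT averaged over diets, since arrays that deviate together are not separate units. There the random block within genotype raised the median SE from 0.091 to 0.101. It cut the calls over all probe sets from 2972 to 1465, while the calls of member probe sets held. Between KO and WT no pair of groups had all 3 values over 0.1, so those comparisons were not treated as paired. Over all probe sets, calls on the normal diet numbered 476 as reported, 13 to 613 without single arrays, 33 with only the arrays compared, 69 with the mean of probe sets, 128 with the highest per gene, 175 with the fixed block, 927 with a mean-variance trend and 1903 with array weights. On that diet 53.2% of the calls were rises as reported, 75.6% after cyclic loess and 80.7% after median centring. Over both diets they numbered 2972 as reported, 652 to 3704 under the other settings, 1465 with the random block, and 1226 to 5075 without single arrays, and on the high-fat diet 96 as reported, 2 to 356 under the other settings and 11 to 910 without single arrays.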

Other observations

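Of 22 probe sets of peroxisome genes beside catalase, 5 passed in KO against WT over both diets, 3 up and 2 down, where 8.39% of all probe sets tested passed. Both probe sets of Acaa1a, the peroxisomal 3-ketoacyl-CoA thiolase, rose by 0.36 and 0.37 (adjusted p = 0.00878 and 0.00978), and so did the probe set 1455777_x_at of Hsd17b4, the peroxisomal multifunctional enzyme, by 0.34 (SE 0.08, adjusted p = 0.0274). The other probe set of Hsd17b4, 1417369_at, differed by −0.23 (adjusted p = 0.0833), the opposite direction. Pex5, the import receptor that brings catalase into peroxisomes, fell by 0.36 on one probe set (SE 0.08, adjusted p = 0.025) and differed by −0.31 on the other (adjusted p = 0.0997). The membrane transporter Abcd3 fell by 0.40 on one probe set (SE 0.11, adjusted p = 0.0466) and differed by −0.06 on the other (adjusted p = 0.445). The list's median was −0.06, and 9 of the 22 were higher in KO. The 3 probe sets that rose carry the suffix x, which marks probes that may bind other transcripts.

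Several genes of glutathione use had their lowest p in the diet comparison without passing the adjustment. Averaged over genotypes, Gpx2, a glutathione peroxidase of epithelia, differed by 0.46 (SE 0.10, adjusted p = 0.105), Gstm7 by −0.57 (SE 0.14, adjusted p = 0.117) and Chac1, a glutathione-degrading enzyme induced by endoplasmic reticulum stress, by 0.56 (SE 0.17, adjusted p = 0.183). The difference of Gpx2 was 0.71 within KO arrays (adjusted p = 0.287) and 0.21 within WT arrays (adjusted p = 0.663), with an interaction of 0.50 (SE 0.21, unadjusted p = 0.0331, adjusted p = 0.982). Gstm7 differed by −0.74 in WT and −0.40 in KO, and Chac1 by 0.71 and 0.40. Of 24 probe sets of glutathione transferases 2 were higher on the high-fat diet, with a median of −0.19 against 0.002 over all probe sets, and limma called 0 of them.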
